A study of Mus musculus with 8 samples.

Results

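Cadherins and protocadherins were followed across the cell types and treatments of cultured mouse islets. Members were all genes whose symbol begins with Cdh or Pcdh followed by a number, a letter or r, and 77 of the 17362 genes of the table met this rule. They comprised 3 classical type I cadherins, 12 type II cadherins, 7 non-clustered protocadherins, 51 clustered protocadherins (13 of the alpha, 16 of the beta and 22 of the gamma cluster), 2 cadherin-related genes (Cdhr1, Cdhr2) and 2 other atypical cadherins (Cdh13, Cdh23).

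Single nucleus RNA-seq was performed on islets from wild type (WT) mice and from mice with a whole-body knock-in of the S983A allele of Med14, a subunit of Mediator, the coactivator complex between transcription factors and RNA polymerase; the knock-in animals are called mutant here. Hand-picked islets of each genotype were cultured untreated (CON), with forskolin (FSK), which activates adenylate cyclase directly, or with Exendin-4 (Ex-4), a GLP-1 receptor agonist, at 10 nM for 16 h. The study's text gives the same duration for FSK, and the sources used here give neither its dose on islets nor the age and number of the animals behind each pool. Nuclei from about 100 islets per condition were sorted on DAPI and barcoded together, and each of the 8 sequenced sublibraries holds nuclei of all 6 conditions. The sublibraries are therefore not replicates of a condition, and condition, islet preparation and barcoding well cannot be told apart.

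Cadherins are calcium-dependent adhesion proteins. Classical cadherins bind the same cadherin on the neighbouring cell and are tied to the actin cytoskeleton through beta-catenin (Ctnnb1), the alpha-catenins (Ctnna1, Ctnna2, Ctnna3) and p120-type catenins (Ctnnd1, Ctnnd2), and in islets E-cadherin and N-cadherin hold endocrine cells together. Clustered protocadherins are made from tandem arrays in which each variable first exon has its own promoter and, in the alpha and gamma clusters, is spliced to shared constant exons, so that a cell shows a combination of them on its surface.

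The table gives 1 pooled value for each of the 6 conditions and 9 cell types, as counts per 10000 counts of that pool (CP10K) after the deposited logarithm was undone. No test between conditions is possible, and every interval below is an exact 95% interval that covers counting error only. A pooled value also cannot tell fewer nuclei expressing a gene from less RNA in each of them. Totals ran from 1915006 to 3094377 counts in beta cells, from 269394 to 810127 in alpha cells and from 362410 to 631433 in delta cells, but only from 1522 to 19291 in ductal cells and from 4044 to 58294 in the cells annotated as neurons. Members had 1 to 13115 counts over all 54 pools, and 57 of 77 had 20 or more. The listed beta, alpha, delta, PP, endothelial and macrophage markers were highest in their own cell type in most cases (9 of 10, 5 of 8, 4 of 6, 2 of 3, 7 of 7 and 6 of 6), whereas only 1 of 5 neuronal markers was highest in the cells annotated as neurons, so that name rests on the authors' annotation alone. Muscle markers were highest in muscle for 4 of 6 and ductal markers in ductal cells for 4 of 6, with the other 2 ductal markers at 0 there. In each condition some genes were listed at 0 in all 9 cell types, and this included between 0 and 33 members. A 0 of this kind was not read as a loss, and the mean level of such a gene is given over the conditions in which it was not so listed. The order of cell types by the mean is the same either way, and summed counts run over all 6 conditions.

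The cell type pattern was described first. By the mean over the 6 conditions, 20 of 77 members were highest in endothelial cells, 19 in delta cells, 10 in beta cells, 9 in the cells annotated as neurons, 5 in alpha cells, 5 in ductal cells, 4 in PP cells, 3 in muscle and 2 in macrophages. The small pools weigh as much as the large ones in this mean. When counts of the 6 conditions were summed instead, the exact intervals of the highest and the next cell type were apart for 6 members in endothelial cells, 5 in delta cells, 4 in the cells annotated as neurons, 2 in ductal cells, 1 in PP cells, 1 in muscle and none in beta cells, alpha cells or macrophages. Of all 17362 genes, 2% were apart in this way in endothelial cells, 1.23% in delta cells, 1.21% in the cells annotated as neurons, 1.07% in ductal cells, 0.939% in PP cells, 1.33% in muscle, 2.74% in macrophages, and 2.03% and 1.03% in beta and alpha cells.

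Endothelial cells were set off by the vascular cadherins. Cdh5 (VE-cadherin, the adhesion protein of endothelial junctions; GRCm39 chr8:104828231-104871143) had 810 of its 841 counts there. Its endothelial level was 12.2 and 13.0 CP10K in the CON and Ex-4 pools of WT and 11.2, 20.01 and 7.97 CP10K in mutant CON, FSK and Ex-4, and it was listed at 0 in every cell type of WT FSK. Because that listing covers all cell types of the condition, it was not taken as a loss of Cdh5 under FSK. Cdh13 (T-cadherin, a lipid-anchored receptor for adiponectin; chr8:119010328-120051660) had 1578 of 1920 counts in endothelial cells, at 22.2 CP10K in WT CON, 46.5 in WT FSK, 26.1 in WT Ex-4, 14.4 in mutant CON, 32.5 in mutant FSK and 11.3 in mutant Ex-4. In both genotypes the FSK pool was the highest of the 3. Pcdh17, a non-clustered protocadherin, had 215 of 256 counts in endothelial cells, where it averaged 3.51 CP10K over 5 conditions and was listed at 0 in every cell type of WT FSK.

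These genes also gave a measure of endothelial RNA in the endocrine pools. Cdh5 in beta, alpha and delta cells stood at 0.115%, 0.152% and 0.0887% of its endothelial level, while the summed list of 7 endothelial markers stood at 0.218%, 0.215% and 0.252%. Cdh13 reached 1.17% of its endothelial level in alpha cells, and Pcdh17 reached 1.49% in delta cells, both above the share of the marker list in the same cells.

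Among the classical cadherins, each of the 3 members was seen in all main endocrine cell types, and Cdh3 was not analysed here. Cdh1 (E-cadherin, the epithelial cadherin; chr8:107329941-107396880) averaged 1.60 CP10K in beta, 1.53 in delta, 1.4 in PP and 0.771 in alpha cells. Its highest mean, 6.23 CP10K in ductal cells, rested on 37 counts. Cdh2 (N-cadherin; chr18:16700793-16942381) averaged 8.46 CP10K in delta, 7.65 in PP, 3.75 in beta and 2.57 in alpha cells. Its mean of 10.3 in the cells annotated as neurons ranged from 1.11 to 34.6 between conditions on 1 to 28 counts a pool, and with summed counts delta cells were highest, at 8.14 CP10K (7.82 to 8.47). Cdh4 (R-cadherin; chr2:179084201-179541166) averaged 3.86 CP10K in delta, 3.32 in PP, 2.38 in beta and 1.88 in alpha cells.

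Type II cadherins, a family best known from neurons, differed in the endocrine cell type in which they were found. Cdh8 (chr8:99751103-100144308) averaged 6.21 CP10K in delta and 6.17 in beta cells against 1.74 in alpha cells, and with summed counts beta cells (6.49, 6.36 to 6.62) and delta cells (6.12, 5.85 to 6.41) were close. Cdh7 (chr1:109910161-110068061) had 743 of 805 counts in beta cells, which have the deepest pools, at a mean of 0.464 CP10K. The cells annotated as neurons were next at 0.193 CP10K, and with summed counts the intervals overlapped, at a ratio of 1.46. Of beta, alpha and delta cells, beta cells were 6.90 times the next by summed counts, with intervals apart. Cdh9 showed the opposite pattern, at 0.958 CP10K in PP and 0.585 in alpha cells against 0.00645 in beta cells. Cdh12 averaged 2.54 CP10K in the cells annotated as neurons and 0.452 in alpha cells, and Cdh18 averaged 1.73 and 0.296. Cdh6 had 125 of 162 counts in ductal cells, all of them from mutant CON (33 counts) and mutant FSK (92 counts), and it was listed at 0 in every cell type of the other 4 conditions. Cdh22, named after its values were seen, averaged 2.16 CP10K in delta, 1.08 in beta and 0.238 in alpha cells.

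Non-clustered protocadherins were led by the long genes Pcdh15 and Pcdh9. Pcdh15, known as a component of the tip links of hair cells (chr10:72935174-74485569), averaged 22.9 CP10K in delta and 17.8 in PP cells against 6.06 in the cells annotated as neurons, 3 in beta and 2.45 in alpha cells. Pcdh9 (chr14:93250846-94128152) averaged 5.66 CP10K in delta, 3.86 in PP, 3.26 in the cells annotated as neurons and 2.97 in muscle, against 0.859 in alpha and 0.105 in beta cells. Both genes thus had their highest endocrine level in delta cells and the next in PP cells. Pcdh7 averaged 3.82 CP10K over 5 conditions in the cells annotated as neurons, on 31 of its 86 counts, and was listed at 0 in every cell type of WT Ex-4. Pcdh19 had 31 of 39 counts in muscle, from mutant CON (8 counts) and mutant FSK (23 counts), and was listed at 0 in the other 4 conditions. Pcdh11x, named after its values were seen, was higher in each of the 6 pools of the cells annotated as neurons than in any pool of its next cell type, on 17 counts.

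The clustered protocadherins lie on chromosome 18 in 3 arrays, alpha (chr18:37063237-37320716), beta (chr18:37397991-37657532) and gamma (chr18:37794846-37975014). The 13 alpha genes of the table share 2 annotated exons, and the 22 gamma genes share another 2, while no exon is shared by all beta-cluster genes. The sources used here do not say how reads in shared exons were divided between the genes, so the value of any single alpha or gamma gene is uncertain, whereas the sum over a cluster does not depend on that division as long as each read was counted once. Of the 43 members with at least 60 counts in beta, alpha and delta cells, 28 were highest of the 3 in delta cells, 8 in beta and 7 in alpha cells, with intervals apart from the next cell type for 11, 3 and 4. Of all 11926 genes with as many counts, 30.1% were highest in delta cells, 29.4% in beta and 40.5% in alpha cells, and 8.28%, 13% and 11.4% had intervals apart. The clustered genes among the 43 members were highest in delta cells in 21 of 26 cases, with intervals apart for 5. Genes of the alpha cluster, and likewise those of the gamma cluster, overlap and have exons in common, so these cases are not separate observations. Pcdhga3, Pcdhga4 and Pcdhga6 had the largest ratios of delta cells to the next cell type by the mean, at 0.132, 0.0684 and 0.131 CP10K against 0.0785, 0.0394 and 0.0786 in beta cells, on 41, 21 and 38 delta counts. With summed counts their next cell types were endothelial cells, the cells annotated as neurons and alpha cells, at ratios of 1.37, 1.27 and 1.61, and the intervals overlapped for all 3. In beta cells the genes singled out in this way were Pcdhb21 with 20 counts, Pcdha1 with 100 counts at 0.0719 CP10K over 5 conditions, and Cdh7.

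**Figure D1:**
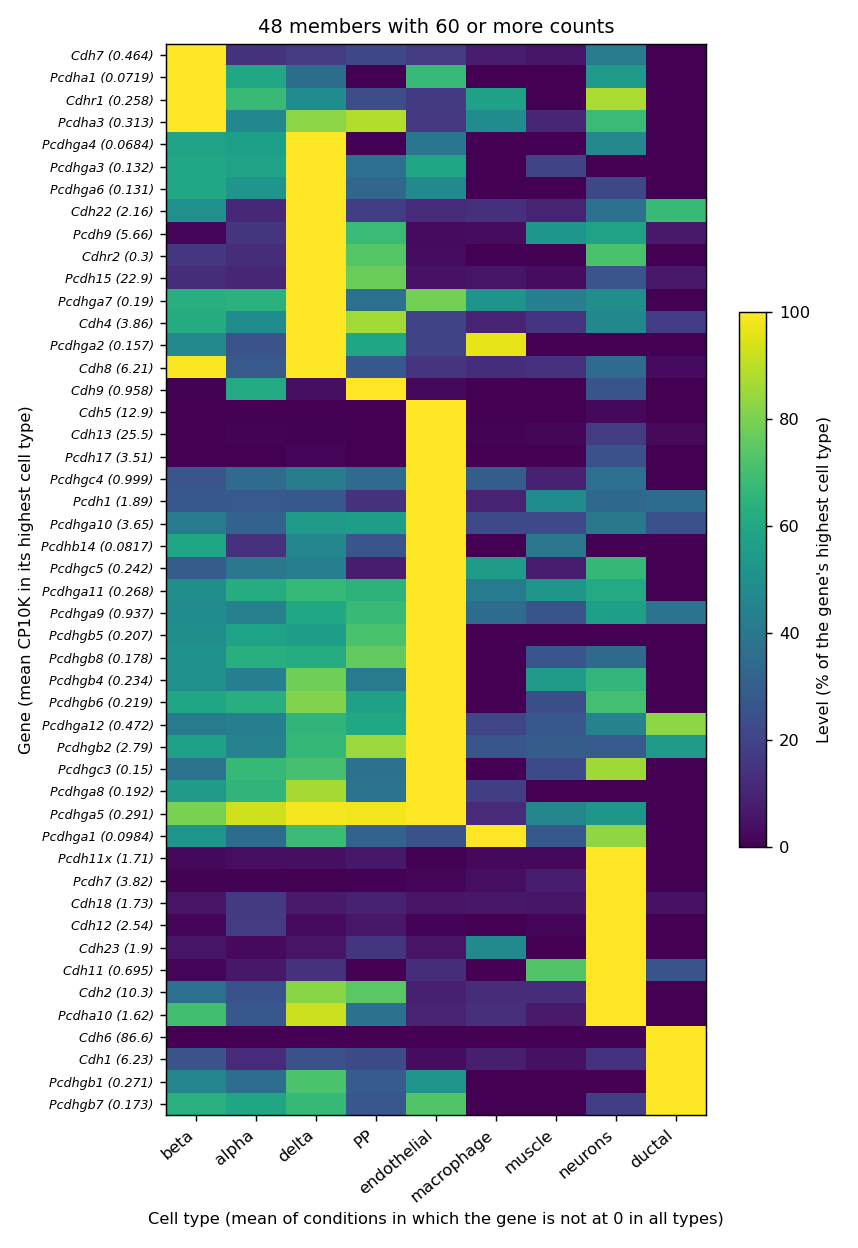
Mean CP10K, over the conditions in which the gene was not listed at 0 in every cell type, in each of the 9 cell types (columns) for members with 60 or more counts (rows), colored as a percentage of the gene's highest cell type, with that highest mean in parentheses. Cdh5 and Cdh13 are bright in endothelial cells alone, Pcdh15 and Pcdh9 in delta and PP cells, and most gamma cluster genes in delta or endothelial cells.

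Next the differences between conditions were described in beta, alpha and delta cells. For each cell type, 7 contrasts were formed: FSK against CON and Ex-4 against CON in each genotype, and mutant against WT within CON, FSK and Ex-4. A gene was called higher or lower at 1.5-fold, that is at a difference of at least 0.58 in log2(CP10K + 1), among genes that passed a filter on low values. The filter kept 34 members in beta, 32 in alpha and 35 in delta cells. Adding 1 before the logarithm makes this rule strict for low genes, so a second rule was read beside it, a CP10K ratio of at least 2 in either direction whose interval excludes 1, with at least 30 counts over both pools. Contrasts that use the same CON pool share it, and no agreement between them is read here as independent.

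Over the 21 contrasts, 11 members were called 43 times: Pcdh15 (9 calls), Cdh2 (7), Cdh4 (7), Cdh8 (6), Pcdh9 (5), Pcdha10 (3), Cdh1 (2), and Cdh7, Cdh9, Cdh12 and Cdh18 (1 each). The share of all kept genes called over the 21 contrasts together is not given here. These totals therefore do not show whether members differ from other genes, and shares are given below for single contrasts. Higher calls were found only in the FSK against CON contrasts, and lower calls mostly in WT Ex-4 and in the untreated mutant, both of which were set against WT CON.

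FSK was taken first, in beta cells. No member was called in WT, in either direction, where 1.52% of all kept genes were higher and 0.723% lower. In the mutant, 2 of 34 members were higher, Cdh8 and Cdh2, and none lower, where 5.12% of kept genes were higher and 2.7% lower. Cdh8 stood at 7.62 CP10K in WT CON, 10.1 in WT FSK, 3.47 in WT Ex-4, 2.59 in mutant CON, 10.2 in mutant FSK and 3.01 in mutant Ex-4. The FSK pools of both genotypes were at nearly the same level, while the CON pools differed. The FSK to CON ratio of Cdh8 was 3.96 (3.59 to 4.37) in the mutant.

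Cdh2 showed the same order on a smaller scale, at 5.11 CP10K in WT CON, 5.18 in WT FSK, 2.60 in WT Ex-4, 2.26 in mutant CON, 4.87 in mutant FSK and 2.47 in mutant Ex-4. Its ratio for FSK in the mutant was 2.16 (1.93 to 2.41). Here WT CON and the 2 FSK pools formed the high set and the other 3 pools the low set, with no overlap between the sets. The neuronal and alpha-cell marker lists moved with these pools in beta cells, and no other list of another cell type did. The 5 neuronal markers summed to 25.1 CP10K in beta cells of WT CON and of mutant FSK and 24.2 in those of WT FSK, against 11.2 to 13.7 in the other 3 pools, and the 8 alpha-cell markers to 9.92, 11.2 and 13.9 in the same order against 6.38 to 6.52, while the beta-cell list was 47.7 to 66.1 CP10K in the 6 pools. The 6 delta-cell markers went the other way, at 0.123, 0.156 and 0.0517 CP10K in the same order against 0.188 to 0.480. The PP markers measured were at 0.176, 0.365 and 0.139 against 0.161 to 0.543. The neuronal list averaged 18.7 CP10K in beta cells, above the 13.2 in the cells annotated as neurons. The part of any of these lists in the differences of Cdh8 and Cdh2 was not tested. By contrast, Cdh1, the main epithelial cadherin, was at 2.00 CP10K in WT CON, 1.75 in WT FSK, 1.56 in WT Ex-4, 1.33 in mutant CON, 1.65 in mutant FSK and 1.34 in mutant Ex-4, and no contrast in beta cells passed either rule.

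Under the interval rule the lower side was the larger one in beta cells. In WT, 12 of 30 members with enough counts were lower under FSK and none higher, against 14.9% and 3.48% of all such genes. In the mutant, 13 of 34 were lower and 3 higher, against 17.7% and 11.8%. Of these lower members, 8 in WT and 11 in the mutant were gamma protocadherins. The others in WT were Cdhr1 (0.492, 0.339 to 0.706), a cadherin of photoreceptors, and Cdh23, Cdh13 and Pcdh9 at ratios of 0.5, 0.454 and 0.382 on low counts. In the mutant they were Cdhr1 (0.411, 0.254 to 0.651) and Cdh18 (0.363, 0.154 to 0.794). Cdhr1 was at 0.309, 0.152 and 0.356 CP10K in WT CON, FSK and Ex-4 and at 0.306, 0.126 and 0.298 in the mutant, so the FSK pool was the lowest of the 3 in each genotype.

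The gamma cluster in beta cells divided under FSK. With at least 30 counts over both pools, 12 of 15 gamma genes in WT and 16 of 19 in the mutant had a ratio below 1, and the median ratios were 0.435 and 0.461. Over all kept genes with 30 counts the median ratios were 0.824 and 0.925. Pcdhgb4, with the lowest ratio in WT, was at 0.106 CP10K in WT CON, 0.0226 in WT FSK, 0.181 in WT Ex-4, 0.156 in mutant CON, 0.0521 in mutant FSK and 0.188 in mutant Ex-4. The 2 FSK pools were the lowest of the 6, and the ratios were 0.213 (0.0793 to 0.491) in WT and 0.334 (0.156 to 0.673) in the mutant. For Pcdhga7, too, the FSK pool was the lowest of its genotype, at 0.113, 0.0355 and 0.144 CP10K in WT CON, FSK and Ex-4 and at 0.218, 0.0564 and 0.146 in the mutant.

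A pair of gamma genes, Pcdhga10 and Pcdhgb2, named after their values were seen, was not lower under FSK in beta cells. The pair held 60.5% of the gamma counts in WT CON, 77.2% in WT FSK, 41.7% in WT Ex-4, 38.5% in mutant CON, 67.5% in mutant FSK and 42.5% in mutant Ex-4 beta cells. Pcdhga10 was at 1.56 CP10K in WT CON, 2.05 in WT FSK, 1.13 in WT Ex-4, 1.08 in mutant CON, 2.11 in mutant FSK and 1.20 in mutant Ex-4. Its FSK ratios were 1.32 (1.17 to 1.49) in WT and 1.96 (1.66 to 2.32) in the mutant. Pcdhgb2 had FSK ratios of 1.03 (0.915 to 1.16) and 1.68 (1.43 to 1.97), at 1.82, 1.87 and 1.29 CP10K in WT CON, FSK and Ex-4 and at 1.24, 2.07 and 1.25 in the mutant. The sum over all 22 gamma genes, for which the division of shared exons does not matter if each read was counted once, differed far less: 1573 counts under FSK against 1681 in WT CON (ratio 0.911, 0.85 to 0.976) and 1425 against 1157 in the mutant (1.03, 0.952 to 1.11). Without this pair, which was left out for its direction, the other 20 genes summed to 358 counts under FSK against 664 in WT CON (0.525, 0.460 to 0.598) and to 463 against 712 in the mutant (0.544, 0.482 to 0.612). Thus the cluster total and the remaining genes gave different pictures, and whether the difference lies in the use of first exons or in the counting was not tested.

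**Figure D2:**
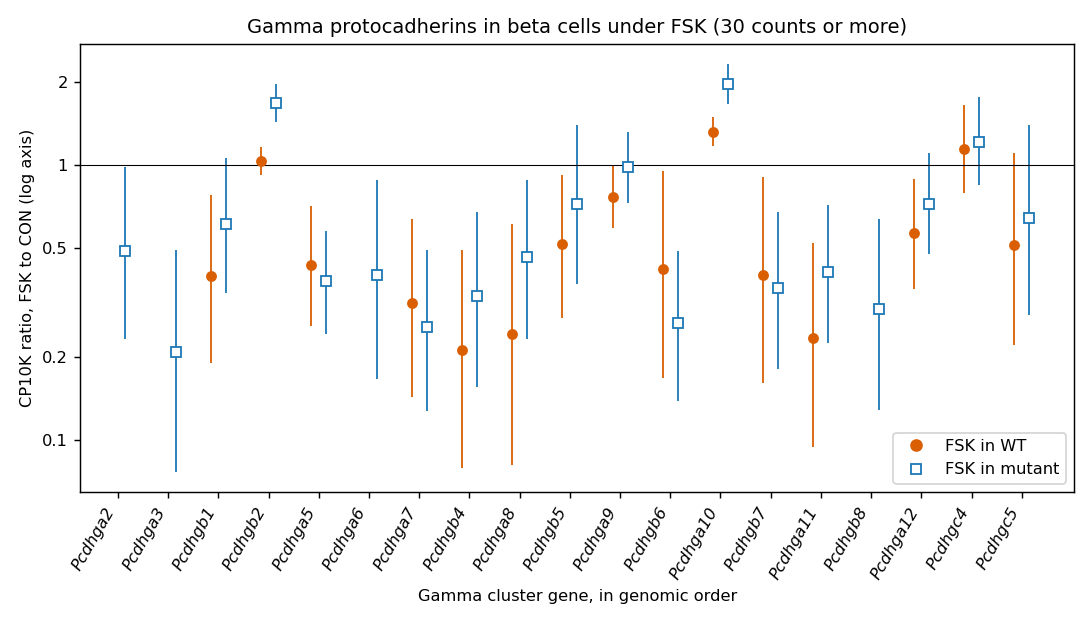
CP10K ratio of FSK to CON in beta cells (log axis) for gamma cluster genes with 30 or more counts over both pools, in genomic order, in WT (filled circles) and mutant (open squares), with exact 95% intervals of the ratio that cover counting error only. Most genes lie below 1, down to 0.213 in WT and 0.209 in the mutant, while Pcdhga10 reaches 1.32 and 1.96.

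The gamma genes of delta and alpha cells had fewer counts. In delta cells all 22 genes had an FSK to CON ratio of summed counts of 0.651 (0.545 to 0.777) in WT and 0.629 (0.549 to 0.721) in the mutant. In alpha cells the intervals of the total held 1, at 0.970 (0.761 to 1.23) in WT and 0.917 (0.804 to 1.05) in the mutant. The 20 genes other than Pcdhga10 and Pcdhgb2 had ratios in delta cells of 0.424 (0.298 to 0.597) in WT and 0.489 (0.404 to 0.590) in the mutant. In alpha cells those of the 20 genes were 0.619 (0.406 to 0.926) and 0.744 (0.624 to 0.886). The pair was set apart by its direction in beta cells, which it did not show in WT delta cells. There all 4 gamma genes with 30 counts, the pair among them, had FSK ratios below 1, and 2 were lower by 1.5-fold. Without the pair 1 was lower by 1.5-fold. Pcdhga5 was past the interval rule under FSK in all 3 cell types of the mutant, at 0.378 (0.243 to 0.577) in beta, 0.469 (0.236 to 0.887) in alpha and 0.299 (0.130 to 0.628) in delta cells.

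In beta cells the alpha cluster differed from this. Pcdha10, its best counted gene, was at 1.5 CP10K in WT CON, 1.65 in WT FSK, 0.808 in WT Ex-4, 0.675 in mutant CON, 1.47 in mutant FSK and 0.668 in mutant Ex-4 in beta cells. The ratio for FSK in the mutant was 2.17 (1.77 to 2.68), with WT CON and both FSK pools again above the other 3. The sum over the 13 alpha genes gave 0.990 (0.888 to 1.10) for FSK in WT and 1.88 (1.58 to 2.23) in the mutant. The 16 beta-cluster genes had 1 to 85 counts each, only 6 of them with 20 or more, and none could be compared under FSK at 30 counts in beta cells.

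In alpha cells FSK was accompanied by higher Pcdh15 and Cdh4 in both genotypes. These were the 2 of 32 kept members called higher in WT and the 2 called higher in the mutant, where 1.34% and 3.13% of kept genes were higher. Pcdh15 was at 2.00 CP10K in WT CON, 5.64 in WT FSK, 1.44 in WT Ex-4, 1.21 in mutant CON, 3.10 in mutant FSK and 1.31 in mutant Ex-4. The 2 FSK pools were the highest, with ratios of 2.82 (2.14 to 3.72) in WT and 2.57 (2.02 to 3.28) in the mutant. Between the FSK pools the mutant was lower (0.550, 0.448 to 0.678), the 1 member lower in that contrast, where 0.411% of kept genes were lower. Cdh4 was at 1.31 CP10K in WT CON, 3.75 in WT FSK, 1.06 in WT Ex-4, 0.926 in mutant CON, 3.38 in mutant FSK and 0.832 in mutant Ex-4. Its FSK ratios were 2.86 (2.04 to 4.05) and 3.66 (2.82 to 4.79), again with both FSK pools above all others. The 6 muscle markers measured moved the same way in alpha cells, summing to 1.45 CP10K in WT FSK and 2.11 in mutant FSK. The other 4 pools lay between 0.215 and 0.667. In muscle itself the WT and mutant FSK pools held Cdh4 at 1.03 and 0.805 CP10K, on 5 and 7 counts. Pcdh15 was there at 0.414 and 1.49 CP10K, on 2 and 13 counts. The part of muscle RNA in these differences was not tested.

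On the lower side in alpha cells, Cdh18 was the 1 member called under FSK in WT, where 1.17% of kept genes were lower. It had 31 counts in WT CON (0.739 CP10K) and 3 in WT FSK (0.111 CP10K), a ratio of 0.151 (0.0295 to 0.483), and lay between 0.199 and 0.284 CP10K in the other 4 pools. WT CON was thus the pool that stood apart for Cdh18. No member was called lower under FSK in mutant alpha cells, where 0.885% of kept genes were. With the interval rule 2 of 13 members were higher and 2 lower in WT alpha cells (3.28% and 4.41% of all such genes), and 5 of 21 were higher and 1 lower in mutant alpha cells (9.21% and 3.26%). The lower ones in WT were Cdh18 and Pcdha10, the latter at a ratio of 0.402. All 13 genes of the alpha cluster summed to 13 counts under FSK against 50 in WT CON alpha cells (0.405, 0.202 to 0.756). In mutant alpha cells the ratio of this sum was 0.957 (0.643 to 1.42). Those added to Cdh4 and Pcdh15 on the higher side in the mutant were Cdh9 (2.47, 1.49 to 4.20), Pcdh9 (2.34, 1.45 to 3.87) and Cdh13 (2.06, 1.12 to 3.94).

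In delta cells, 1 of 35 kept members was higher and 1 lower under FSK in WT, where 2.45% and 2.33% of kept genes were called. In the mutant 5 of 35 were higher and none lower, against 5.47% and 2.44%. Pcdh15 was higher in both genotypes, at 21.7 CP10K in WT CON, 46.4 in WT FSK, 14.1 in WT Ex-4, 10.1 in mutant CON, 33.5 in mutant FSK and 11.7 in mutant Ex-4. The ratios were 2.13 (1.96 to 2.32) in WT and 3.31 (3.01 to 3.63) in the mutant, and the FSK pools were the highest in each genotype, as in alpha cells. In beta cells Pcdh15 was not higher under FSK, at 4.67 CP10K in WT CON, 2.98 in WT FSK, 2.77 in WT Ex-4, 2.58 in mutant CON, 2.27 in mutant FSK and 2.73 in mutant Ex-4, where only WT CON stood apart.

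Cdh4 in WT delta cells was lower under FSK, at 7.84 CP10K in WT CON, 3.13 in WT FSK, 3.47 in WT Ex-4, 3.05 in mutant CON, 2.69 in mutant FSK and 2.99 in mutant Ex-4. The WT ratio was 0.4 (0.323 to 0.493), and WT CON stood above the other 5 pools, which lay close together. The direction was thus opposite in delta and alpha cells of WT, where the alpha ratio was 2.86, and the difference between the cell types was not tested. In beta cells Cdh4 was at 3.71, 3.47 and 1.76 CP10K in WT CON, FSK and Ex-4 and at 1.7, 2.42 and 1.22 in the mutant.

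The other members called higher under FSK in mutant delta cells were Cdh8, Cdh2, Pcdh9 and Pcdha10. Cdh8 was at 8.61, 8.63 and 3.91 CP10K in WT CON, FSK and Ex-4 and at 3.16, 9.71 and 3.22 in mutant CON, FSK and Ex-4, a ratio of 3.07 (2.60 to 3.65) for FSK in the mutant. Cdh2 was at 11.7, 15 and 5.3 CP10K in WT and at 4.47, 10.4 and 3.89 in the mutant, a ratio of 2.33 (2.01 to 2.70). As in beta cells, WT CON and both FSK pools were high for Cdh8 and Cdh2 and the other 3 pools low. Pcdh9 was at 10.2, 8.35 and 3.71 CP10K in WT and at 2.42, 6.90 and 2.33 in the mutant, a ratio of 2.85 (2.35 to 3.48). Pcdha10 was at 1.96, 2.15 and 0.903 CP10K in WT and at 0.900, 2.20 and 0.832 in the mutant, a ratio of 2.44 (1.76 to 3.44). By the interval rule 1 of 12 members was higher and 2 lower in WT (6.57% and 6.78% of all such genes), and 5 of 16 were higher and 2 lower in the mutant (14.6% and 9%). Cdhr2, a cadherin of the intestinal brush border, was at 0.424 CP10K in mutant CON and 0.127 in mutant FSK (0.299, 0.116 to 0.688), and at 0.414 and 0.0702 in WT. Pcdhgc4 was lower in WT (0.444, 0.193 to 0.963).

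**Figure D3:**
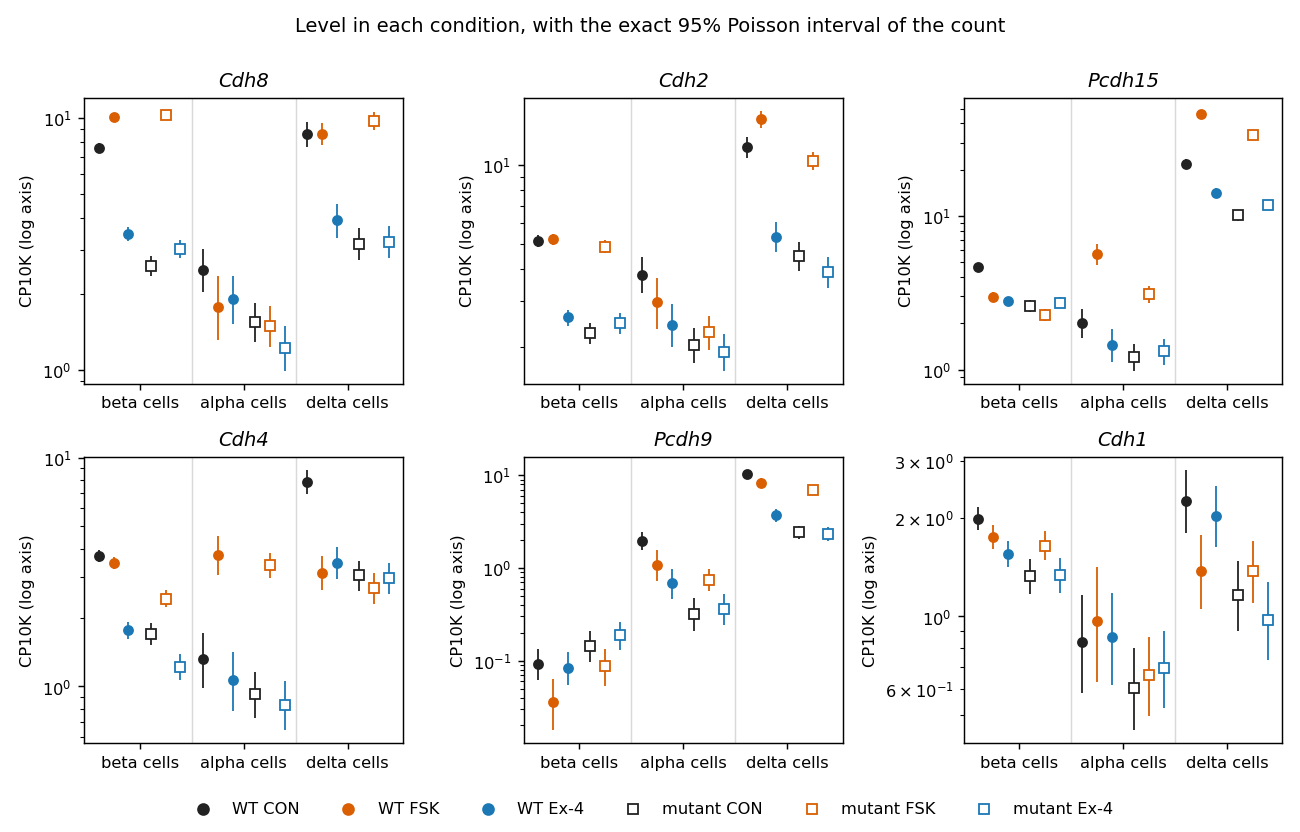
CP10K (log axis) of Cdh8, Cdh2, Pcdh15, Cdh4, Pcdh9 and Cdh1 in beta, alpha and delta cells, with 1 pool per point (circles WT, squares mutant; black CON, orange FSK, blue Ex-4) and exact 95% Poisson intervals of the count. WT CON and both FSK pools are high for Cdh8 and Cdh2 in beta and delta cells, and the FSK pools are highest for Pcdh15 in alpha and delta cells.

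Because FSK raises cAMP, sequence upstream of the members was searched for the cAMP response element. RefSeq promoter windows (build GRCm38.p6, a build other than that of the data, so used for sequence only) were matched by symbol for 18 of 77 members, with 21 windows of 250 bases before the annotated start. Cdh1, Cdh2, Cdh4 and Pcdha10 were not among them. The full palindrome TGACGTCA was found in 508 of 32851 windows of all genes (1.55%) and in none of the member windows. The core TGACG, on either strand and including any copy inside the full site, was found in 17.8% of all windows and in 3 of 21 member windows, 1 of Cdh8 and 2 of Pcdh9. A match only describes these letters, and the lack of one says only that they are not in the window searched. The windows of Cdh8 (chr8:99416472-99416721, minus strand), Pcdh9 (chr14:93890680-93890929, minus strand) and Pcdh15 (chr10:73821617-73821866, plus strand) are shown because these genes had high FSK pools in delta cells or in beta cells, with the core in capitals where there is one. It reads as its reverse complement on the gene's own strand and ends 4 bases before the start in Cdh8 and 48 bases before it in Pcdh9. By its coordinates the Pcdh15 window does not precede the GRCm39 start of that gene (chr10:72935174) but falls within its annotated span. The builds were not aligned, and the window may belong to an internal start. Its letters therefore do not describe the sequence before the annotated start of Pcdh15.
Cdh8: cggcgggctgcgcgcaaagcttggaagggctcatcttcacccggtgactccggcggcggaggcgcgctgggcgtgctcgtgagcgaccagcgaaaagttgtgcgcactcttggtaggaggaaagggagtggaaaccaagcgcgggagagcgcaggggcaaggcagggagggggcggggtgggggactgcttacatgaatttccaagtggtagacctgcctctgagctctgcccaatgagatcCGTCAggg
Pcdh9: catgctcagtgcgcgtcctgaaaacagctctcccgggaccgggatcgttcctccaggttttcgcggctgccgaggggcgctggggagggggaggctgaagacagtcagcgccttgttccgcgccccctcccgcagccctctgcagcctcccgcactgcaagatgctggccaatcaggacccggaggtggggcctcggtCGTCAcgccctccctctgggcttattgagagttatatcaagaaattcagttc
Pcdh15: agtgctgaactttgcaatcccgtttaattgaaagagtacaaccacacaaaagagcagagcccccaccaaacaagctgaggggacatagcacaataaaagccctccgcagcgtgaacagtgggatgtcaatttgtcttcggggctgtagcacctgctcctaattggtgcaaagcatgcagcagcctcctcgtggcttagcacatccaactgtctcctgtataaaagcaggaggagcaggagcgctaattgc
The windows of Cdh8 and Pcdh9 had a GC content of 64.4% and 63.6%, and that of Pcdh15, with no core, 50.4%.

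Ex-4 was then compared with CON. In WT beta cells 4 of 34 kept members were lower, Cdh8, Cdh4, Cdh2 and Pcdh15, and none higher, where 2.18% of kept genes were lower and 0.941% higher. Using the levels given above, the Ex-4 to CON ratios were 0.455 (0.422 to 0.490) for Cdh8, 0.474 (0.426 to 0.526) for Cdh4, 0.509 (0.466 to 0.555) for Cdh2 and 0.594 (0.544 to 0.648) for Pcdh15. The classical cadherin Cdh1 was not among them, with 464 counts in WT Ex-4 and 601 in WT CON. By the interval rule 3 of 38 members were lower and 3 higher (2.98% and 12.7% of all such genes). The lower ones included Cdh7, a type II cadherin with most of its counts in beta cells. It was at 0.929 CP10K in WT CON, 0.469 in WT FSK, 0.372 in WT Ex-4, 0.286 in mutant CON, 0.326 in mutant FSK and 0.402 in mutant Ex-4. WT CON was the highest pool, and the Ex-4 ratio in WT was 0.401 (0.319 to 0.501). The higher ones were Pcdhgb6 (2.45, 1.45 to 4.30), Pcdhga2 (3.03, 1.49 to 6.65) and Cdh18 (2.02, 1.17 to 3.59), the last on 42 against 21 counts.

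The gamma cluster of beta cells leaned upward under Ex-4 in WT, gene by gene. Of 20 genes with 30 counts, 12 were higher by 1.5-fold in ratio and 2 were below 1, and the median ratio was 1.70, against 1.12 for all kept genes with 30 counts. The share of all genes past 1.5-fold in ratio is not given here. The gamma genes overlap and have exons in common, so they are not separate observations. Without Pcdhga10 and Pcdhgb2 the summed ratio was 1.53 (1.39 to 1.69), and over all 22 genes it was 1.04 (0.969 to 1.11). In contrast the 13 alpha cluster genes had a summed ratio of 0.588 (0.518 to 0.668).

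Alpha cells had 1 member of 32 lower under Ex-4 in WT and none higher, where 4.02% and 1.71% of kept genes were called. This was Pcdh9, at 1.96 CP10K in WT CON, 1.08 in WT FSK, 0.687 in WT Ex-4, 0.321 in mutant CON, 0.751 in mutant FSK and 0.365 in mutant Ex-4. The Ex-4 ratio in WT was 0.351 (0.224 to 0.537), and WT CON was the highest pool. By the interval rule 4 of 15 members were lower and none higher (9.66% and 7.29% of all such genes), and the others were Cdh9 (0.410, 0.226 to 0.720), Cdh12 (0.429, 0.231 to 0.768) and Cdh18 (0.270, 0.113 to 0.580), on 9 to 43 counts a pool.

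Delta cells had the most members lower under Ex-4 in WT, 6 of 35, where 3.32% of kept genes were lower and 1.74% higher, with no member higher. The ratios were 0.362 (0.299 to 0.437) for Pcdh9, 0.443 (0.361 to 0.542) for Cdh4, 0.453 (0.384 to 0.534) for Cdh2, 0.455 (0.375 to 0.550) for Cdh8, 0.461 (0.304 to 0.691) for Pcdha10 and 0.650 (0.584 to 0.723) for Pcdh15. By the interval rule 5 of 16 members were lower and 1 higher (6.81% and 7.76% of all such genes). The higher one was Pcdh1, a protocadherin known from airway epithelium, at 0.331 CP10K in WT CON and 0.695 in WT Ex-4 (2.1, 1.04 to 4.5).

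In the mutant, no member was called under Ex-4 in beta, alpha or delta cells by either rule. Few genes of any kind were called there, 0.0396% higher and 0.00991% lower in beta cells, 0.0422% and 0 in alpha cells and 0.0324% and 0.0108% in delta cells. By ratio and interval the shares of all genes were 0.62% higher and 0.721% lower in beta cells, 0.449% and 1.3% in alpha cells and 0.8% and 1.02% in delta cells. The mutant CON and Ex-4 levels of Cdh8 in beta cells were 2.59 and 3.01 CP10K, and those of Pcdh9 in delta cells 2.42 and 2.33. The gamma cluster of beta cells had a median ratio of 0.929.

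Genotype was compared within each treatment. In untreated beta cells 5 of 34 members were lower in the mutant, Cdh8 (0.340, 0.308 to 0.374), Cdh2 (0.442, 0.396 to 0.492), Cdh4 (0.458, 0.403 to 0.518), Pcdh15 (0.553, 0.498 to 0.613) and Cdh7 (0.307, 0.226 to 0.412). None was higher, where 3.86% of kept genes were lower and 1.48% higher. This contrast has WT CON in common with Ex-4 in WT, so the shared names cannot be read as support of one by the other. The interval rule put 6 of 37 members lower and 6 higher (8.79% and 12.4% of all such genes). The lower ones added Pcdha10 (0.449, 0.367 to 0.547) and Pcdha3 (0.378, 0.257 to 0.545), and all 6 higher ones were gamma genes, with ratios between 2.04 and 3.50. All 22 gamma genes summed to 1.08 (0.998 to 1.16) times the WT level, those other than Pcdhga10 and Pcdhgb2 to 1.68 (1.51 to 1.87), and the alpha cluster to 0.457 (0.387 to 0.536).

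In untreated alpha cells, 4 of 32 members were lower in the mutant and none higher, where 5.44% and 1.94% of kept genes were called. Pcdh9 had a ratio of 0.164 (0.101 to 0.258) and Cdh2 of 0.537 (0.429 to 0.672). Cdh9 was at 1.03 CP10K in WT CON, 0.780 in WT FSK, 0.421 in WT Ex-4, 0.284 in mutant CON, 0.700 in mutant FSK and 0.302 in mutant Ex-4 (0.277, 0.159 to 0.470), and Cdh12 was at 0.93, 0.557 and 0.399 in WT against mutant levels of 0.235, 0.229 and 0.365 (0.252, 0.138 to 0.447). For both, WT CON was the highest of the 6 pools. Cdh2 in alpha cells was at 3.79, 2.97 and 2.44 CP10K in WT CON, FSK and Ex-4 and at 2.04, 2.28 and 1.92 in the mutant. The interval rule gave 4 of 20 members lower and 1 higher (13.3% and 8.93% of all such genes), with Cdh18 (0.384, 0.214 to 0.680) besides Cdh9, Cdh12 and Pcdh9, and with Pcdhga5 as the higher one, on few WT counts (3.42, 1.33 to 11.2). The summed list of 10 beta-cell markers moved with this pool, at 34.0 CP10K in WT CON alpha cells and from 12.7 to 19.7 in the other 5 pools. The 5 neuronal markers measured were also highest in WT CON alpha cells, at 9.73 CP10K against 6.82 to 8.54 in the other 5 pools. The 8 alpha-cell markers themselves summed to 132 CP10K in alpha cells of WT CON and of mutant FSK, 165 in those of WT FSK, and 52.8 to 56.7 in the other 3 pools. The part of any of these lists in the member differences of alpha cells was not tested.

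In untreated delta cells, 7 of 35 members were lower in the mutant and none higher, where 4.79% and 2.27% of kept genes were called. The lowest ratio was that of Pcdh9 (0.236, 0.193 to 0.288), followed by Cdh8 (0.367, 0.304 to 0.443), Cdh2 (0.382, 0.325 to 0.447), Cdh4 (0.390, 0.321 to 0.473), Pcdha10 (0.460, 0.314 to 0.668), Pcdh15 (0.466, 0.418 to 0.520) and Cdh1 (0.515, 0.367 to 0.721). Cdh1 was at 2.26 CP10K in WT CON, 1.38 in WT FSK, 2.04 in WT Ex-4, 1.17 in mutant CON, 1.38 in mutant FSK and 0.977 in mutant Ex-4, so WT CON and WT Ex-4 stood above the other 4 pools. The interval rule gave 6 of 16 members lower and 2 higher (12.1% and 10.4% of all such genes), the higher ones being Pcdh1 (2.03, 1.04 to 4.26) and Pcdhga5 (3.84, 1.47 to 12.7). In delta cells the beta-cell list was highest in WT CON, at 13.1 CP10K against 5.92 to 10.4 in the other 5 pools, and the 6 delta-cell markers were highest in the FSK pools, at 9.75 CP10K in WT and 7.79 in the mutant against 4.50 to 5.81 in the rest. The 5 neuronal markers measured summed to 36.5 CP10K in WT CON delta cells, 36.7 under FSK in WT and 24.8 under FSK in the mutant, against 16.8 to 19.9 in the other 3 pools. The part of these lists in the member differences was not tested.

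With either drug fewer members were called between the genotypes than in CON. Under FSK no member was called in beta or delta cells, where 0.0297% and 0.14% of kept genes were higher and 0.109% and 0.27% lower, and none was higher in alpha cells, where 0.0738% of kept genes were. Under Ex-4 no member was called in beta or alpha cells, where 0.0594% and 0.0632% of kept genes were higher and 0% and 0.0527% lower. In delta cells 1 of 35 was lower under Ex-4, Cdh1 (0.479, 0.335 to 0.680), and none higher, where 0.184% of kept genes were lower and 0.0972% higher. Pcdh9 in beta cells, at 0.0355 and 0.0868 CP10K in the WT and mutant FSK pools and at 0.0839 and 0.188 in the Ex-4 pools, passed the interval rule in both (2.44, 1.12 to 5.64, and 2.24, 1.31 to 3.90). Pcdhgb1 was the other member higher in the mutant under FSK (2.48, 1.21 to 5.3), and Pcdha3 was lower under Ex-4 (0.398, 0.240 to 0.635). Over all genes with enough counts in beta cells, 5.53% were higher and 0.328% lower under FSK and 0.763% and 1.5% under Ex-4 by that rule. In alpha cells Cdh12 was lower under FSK (0.411, 0.196 to 0.877), where 3.63% of such genes were higher and 0.701% lower, and no member passed under Ex-4 (0.458% and 2.22%). In delta cells none passed under FSK (4.12% and 0.693%), and Cdh1 alone passed under Ex-4 (0.717% and 2.36%). The gamma sums were not closer under FSK in beta cells, at 1.22 (1.13 to 1.31) for all 22 genes. Those other than Pcdhga10 and Pcdhgb2 gave 1.74 (1.51 to 2.00) in beta, 2.21 (1.55 to 3.26) in alpha and 2.27 (1.65 to 3.15) in delta cells. For all 22 the FSK and CON ratios were 1.31 and 1.38 in alpha and 1.10 and 1.14 in delta cells. Under Ex-4 all 22 gave 0.997 (0.924 to 1.08) in beta cells.

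**Figure D4:**
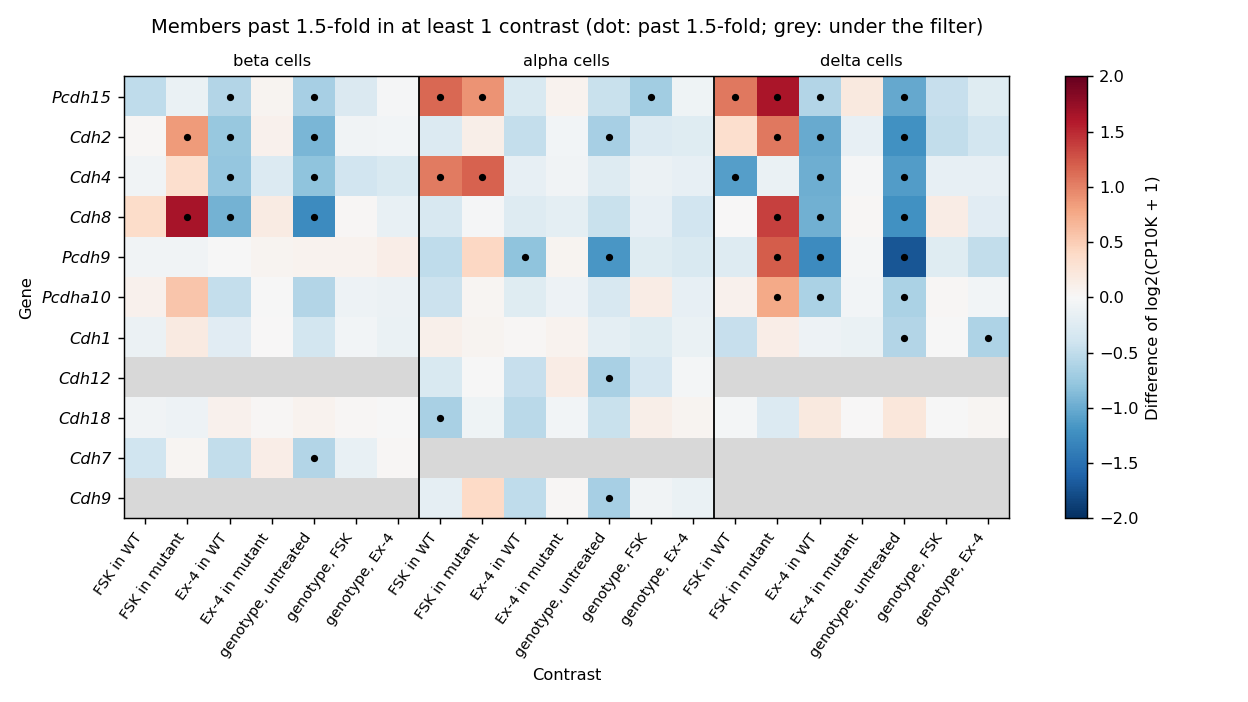
Difference of log2(CP10K + 1) in the 21 contrasts (columns) for the 11 members past 1.5-fold in at least 1 contrast (rows), with dots on the 43 calls and grey for pools under the filter on low values. Higher calls lie in the FSK columns, and lower calls lie mostly in the Ex-4 in WT and untreated genotype columns, which share the WT CON pool.

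Gene length moved with these differences. Of the 11 called members, 7 span 200 kb or more, among them Cdh8 of 393 kb, Cdh4 of 457 kb, Cdh2 of 242 kb, Pcdh9 of 877 kb and Pcdh15 of 1550 kb. The other 4 were Cdh1 (66.9 kb), Cdh9 (129 kb), Cdh7 (158 kb) and Pcdha10 (182 kb). Among all kept beta-cell genes of 200 kb or more, 20.7% were lower under Ex-4 in WT, 29.8% were lower in the untreated mutant and 31.4% were higher under FSK in the mutant, against 4, 4 and 2 of the 9 kept members of that length. In delta cells the corresponding shares were 27%, 32.4% and 24.7%, against 5, 5 and 4 of 9 members. After the trend with length was subtracted, 25 of the 43 calls were still past 1.5-fold, 13 of the 14 FSK calls but 12 of the 27 lower calls for Ex-4 in WT or the untreated mutant. The share of all genes' calls still past 1.5-fold is not given here. For FSK in WT the subtraction made the higher calls larger, with Pcdh15 in alpha cells going from 1.15 to 1.28. For FSK in the mutant it made them smaller, with Pcdh15 in alpha cells going from 0.89 to 0.66. The difference of Pcdh15 for the untreated mutant in beta cells went from -0.66 to 0.00019, and that for Ex-4 in WT in delta cells from -0.59 to 0.06. Those of Cdh8 in beta cells were still past 1.5-fold in all 3 contrasts, and those of Pcdh9 in delta cells likewise. How much of each difference goes with length alone was not tested further.

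Most gamma cluster genes departed from the length pattern in beta cells. Under FSK in the mutant, all genes of 50 to 100 kb had a median log2 ratio of 0.20 and those of 100 to 200 kb of 0.47, against -1.29 for the 7 and -0.88 for the 14 members of these lengths, which are mostly gamma genes. Pcdha10, Pcdhga10 and Pcdhgb2 instead had ratios above the median of their length class in this contrast. The length of a gamma gene is annotated from its own first exon to the shared last exons, and first exons near the 3' end of the array give the shorter genes.

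**Figure D5:**
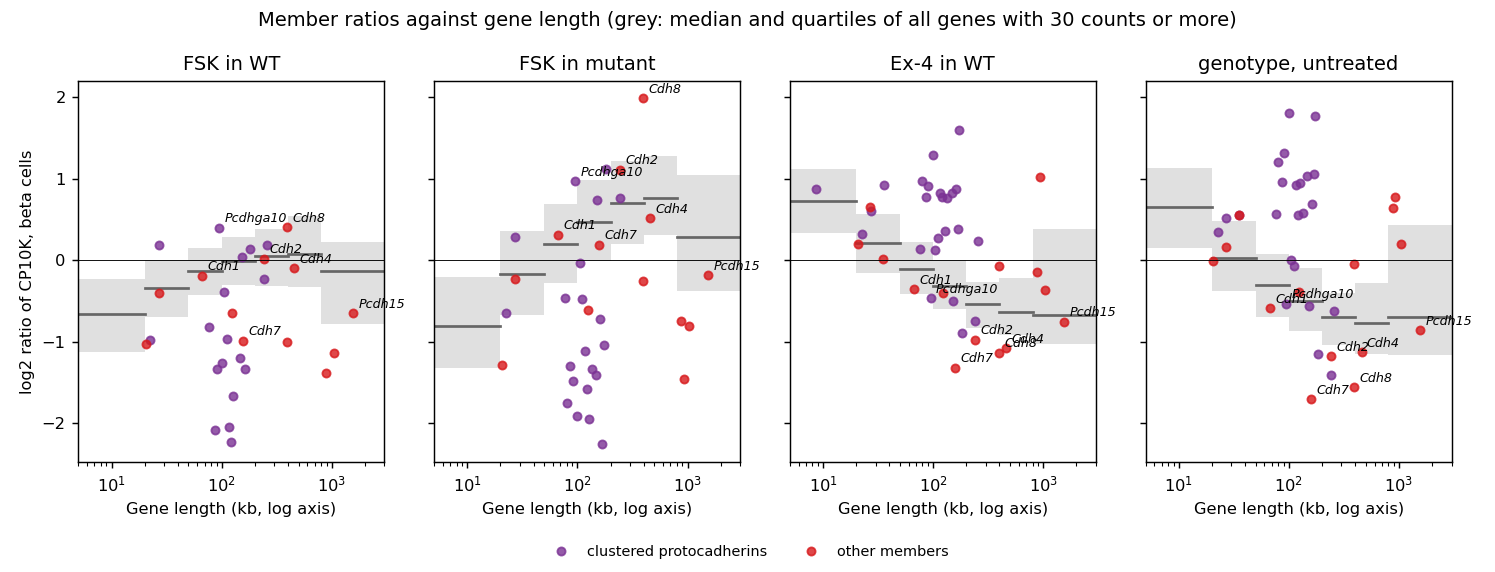
log2 ratio of CP10K in beta cells against gene length (kb, log axis) for members with 30 or more counts over both pools, in 4 contrasts, with clustered protocadherins in purple and other members in red over the median (line) and quartiles (band) of all genes in each length class. Cdh8 and Cdh2 follow or exceed the band of long genes, while most clustered genes lie below the band under FSK and above it in the other 2 contrasts.

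The proteins that tie cadherins to the cytoskeleton were read beside them, from a list of which 19 genes were kept in each cell type. In beta cells, 3 partners were higher and 1 lower under FSK in the mutant, none was called under FSK in WT, 2 were lower under Ex-4 in WT and 4 were lower in the untreated mutant, where 5.12%, 2.7%, 2.18% and 3.86% of all kept genes were called in these directions. Ctnnd2, the delta-catenin of neurons, was at 12.2 CP10K in WT CON, 12.4 in WT FSK, 6.26 in WT Ex-4, 5.61 in mutant CON, 13.2 in mutant FSK and 5.80 in mutant Ex-4 in beta cells. Ctnna2, the neural alpha-catenin, was at 3.24, 5.21 and 1.80 CP10K in WT and at 1.63, 5.43 and 1.74 in the mutant. These 2 genes had the order of Cdh8 and Cdh2, with WT CON and both FSK pools above the other 3, and they span 857 and 1098 kb. Of all kept genes of 200 kb or more, 31.4% were higher under FSK in the mutant, 20.7% lower under Ex-4 in WT and 29.8% lower in the untreated mutant. The FSK ratios in the mutant were 2.35 (2.19 to 2.52) for Ctnnd2 and 3.34 (2.95 to 3.79) for Ctnna2. The other partners called were Adam10, a protease that sheds cadherins (2.90, 2.39 to 3.55), and Afdn (0.539, 0.469 to 0.619), both for FSK in the mutant, and Pkp4 and Nectin3 in the untreated mutant (0.542 and 0.459).

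The broadly expressed catenins were not called in beta cells. Ctnnb1 was between 0.8 and 0.927 CP10K in the 6 beta pools, Ctnna1 between 0.940 and 1.39, Ctnnd1 between 0.95 and 1.17, Jup between 0.197 and 0.319 and Ctnna3 between 0.0631 and 0.187. In delta cells Ctnnb1 was at 0.745, 1.61 and 0.787 CP10K in WT CON, FSK and Ex-4 and at 0.812, 1.58 and 0.724 in the mutant, the FSK pools being the highest but short of the call. Ctnna2 and Ctnnd2 were lower under Ex-4 in WT and in the untreated mutant in alpha cells (Ctnna2 0.387 and 0.398, Ctnnd2 0.577 and 0.452) and in delta cells (Ctnna2 0.445 and 0.492, Ctnnd2 0.628 and 0.463). Under FSK in the mutant, Ctnna2 was higher in alpha cells (1.87, 1.59 to 2.22) and Ctnnd2 in delta cells (2.35, 2.10 to 2.62).

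Of the other genes of the cadherin superfamily (Fat, Dchs, Celsr, Dsg, Dsc and Clstn), 10, 8 and 9 were kept in beta, alpha and delta cells. Over the 21 contrasts, 3 of them were called at least 1 time. Clstn2, a calsyntenin of synapses, was at 0.657 CP10K in WT CON, 2.67 in WT FSK, 0.265 in WT Ex-4, 0.254 in mutant CON, 2.57 in mutant FSK and 0.303 in mutant Ex-4 in beta cells. Its FSK ratios were 4.06 (3.47 to 4.77) in WT and 10.1 (7.53 to 13.8) in the mutant, the FSK pools being the highest. In alpha cells it was higher under FSK in the mutant (3.30, 2.74 to 3.99) and lower under Ex-4 in WT (0.246, 0.186 to 0.322) and in the untreated mutant (0.296, 0.241 to 0.363). Celsr3 was lower under FSK in mutant beta cells (0.510, 0.435 to 0.597) and higher under Ex-4 in WT delta cells (1.98, 1.37 to 2.91), and Fat1 was lower in the mutant under Ex-4 in delta cells (0.458, 0.303 to 0.682). Of all kept beta-cell genes, 1.52% were higher under FSK in WT. In the mutant 5.12% were higher (31.4% of those of 200 kb or more) and 2.7% lower. In alpha cells the shares for the 3 contrasts named were 3.13%, 4.02% and 5.44%. In delta cells those for Celsr3 and Fat1 were 1.74% and 0.184%.

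The medians over all kept members mix genes that went both ways. The median difference of log2(CP10K + 1) in beta cells was -0.08 in both genotypes for FSK, 0.03 in WT for Ex-4 and 0.04 for genotype in CON, against -0.05, -0.02, 0.03 and 0.00 for all kept genes. In delta cells the 9 members of 200 kb or more had medians of -0.59 (Ex-4 in WT), -1.03 (genotype in CON) and 0.12 (FSK in the mutant), against -0.30, -0.40 and 0.23 for all kept genes of that length.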

How the data were processed

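Single nucleus RNA-seq libraries of islets (8 sublibraries, each with all 6 conditions) were processed by the authors with split-pipe against mm39. Nuclei were filtered, normalized with SCTransform, integrated with Harmony in Seurat, clustered, annotated with CellKb and downsampled. The table deposited by the authors gives natural log values, ln(1 + CP10K), for 17362 genes in 54 pools. The sources used here state neither whether pooled counts were raw or corrected nor the annotation release.

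Here the logarithm was undone and counts were recovered as the values that are whole in each pool (100% within 0.001). Pool totals ran from 1522 to 3094377. The smallest of them limits precision, as given by exact 95% Poisson intervals of counts and exact Clopper-Pearson intervals of ratios. All intervals cover counting error only. Genes were kept at or above the 40th percentile of the mean in a cell type. A call was a difference of 0.58 or more in log2(CP10K + 1). A second rule used a ratio of 2, an interval excluding 1 and 30 counts. With 1 pool per condition and cell type no test, standard error or p-value was computed.

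Members, lists and rules were chosen with earlier results of these data known. Named were Cdh1 to Cdh5, members past either rule, and the 3 members with the largest ratio to the next cell type among those with 20 counts. The alternatives were a ratio of 1.5 with 30 counts, no filter, a 2-fold threshold, rescaling without 16 mitochondrial or rRNA-linked genes, and removal of a lowess trend (span 0.3) with gene length. Gene positions came from GENCODE M39 (GRCm39) and promoter sequence from RefSeq. Computation was done with statsmodels 0.14.6, scipy 1.17.1, pandas 2.3.3 and numpy 2.4.6 in Python 3.11.15, and scripts were tested on simulated data. The authors' supplementary tables were not used here.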

Additional observations from a re-analysis of the deposited data

Results flagged for a closer look

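A pair of members had opposite directions in different cell types under the same contrast, each past the rule of a 2-fold ratio with an exact 95% interval that excludes 1. Cdh4 under FSK in WT had a CP10K ratio of 2.86 in alpha cells (101 against 55 counts) and of 0.39995 in delta cells (134 against 284 counts). Cdh18 under Ex-4 in WT had a CP10K ratio of 2.02 in beta cells (42 against 21 counts) and of 0.270 in alpha cells (9 against 31 counts). With 1 pool per condition and cell type, the difference between cell types was not tested in either case. In mutant islets Cdh4 under FSK was at 3.38 against 0.926 CP10K in alpha cells and at 2.69 against 3.05 in delta cells, where the 2-fold rule was not met. WT CON was the pool farthest from the rest for Cdh4 in delta cells and for Cdh18 in alpha cells.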

How the results depend on the processing

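With 1 pool per condition and cell type, no value has a replicate, and leaving out a replicate could not be done. No paired analysis was possible because no result comes from a test and the pools carry no replicate number. Depth limits the alpha and delta pools and the low clustered genes most.

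Calls at 1.5-fold on log2(CP10K + 1) depended mainly on the scale. With a plain CP10K ratio of 1.5 and 30 counts, the members called in beta cells were 18 for FSK in WT, 24 for FSK in the mutant, 22 for Ex-4 in WT, 1 for Ex-4 in the mutant, and 21, 7 and 5 for genotype in CON, FSK and Ex-4. In alpha cells these were 7, 6, 7, 3, 11, 4 and 5. In delta cells they were 5 and 10 for FSK in WT and mutant and 11, 1 and 3 for genotype. Over the 7 contrasts, gamma protocadherins made up 55 of the 98 member results past this ratio in beta, 8 of 43 in alpha and 12 of 39 in delta cells. The share of all genes is not given for this setting or those below, so these counts do not show whether members differ from other genes. By the stricter interval rule, 14.9% of all beta-cell genes with enough counts were lower and 3.48% higher for FSK in WT. For FSK in the mutant these shares were 17.7% and 11.8%. At 2-fold, beta cells had 1 member for FSK in the mutant, 0 for Ex-4 in WT and 1 for untreated genotype, alpha cells 1, 0 and 1 and 0 for genotype in FSK, and delta cells 2 in WT under Ex-4 and 0 for genotype in Ex-4. After rescaling, 3 members rather than 5 were called for untreated genotype in beta cells. After removal of the length trend the counts were 1 for Ex-4 in WT in beta cells, 0 for Ex-4 in WT, 0 for genotype in FSK and 1 for untreated genotype in alpha cells, and 0 for genotype in Ex-4 in delta cells. Without the filter no count moved by more than 1.5 times.

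The length trend changed the sign of Pcdh15 in beta cells for untreated genotype (0.00019) and in delta cells for WT Ex-4 (0.0586). It moved another 124 differences of named members by more than their counting interval and left 420 within it. The medians over members after its removal were -0.22, 0.13, 0.18 and 0.0417 in beta cells for FSK in the mutant, Ex-4 in WT, untreated genotype and genotype in Ex-4. They were 0.00496 and -0.0943 for FSK in WT and mutant, and 0.0958, 0.17 and 0.0251 for Ex-4 in WT, untreated genotype and genotype in Ex-4, in alpha cells. In delta cells they were -0.22 for FSK in the mutant and 0.0542 for genotype in Ex-4. Without the filter the medians were -0.0145 and 0.014 in beta cells for FSK in WT and genotype in FSK, and -0.00171 and 0 in delta cells for FSK in WT and in the mutant. After rescaling they were -0.043 in alpha cells for FSK in the mutant and 0.0101 in beta cells for genotype in Ex-4.

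From WT CON alone, 16 members were highest in beta, 11 in delta, 1 in ductal cells, 1 in macrophages and 0 in muscle. With summed counts 7 were highest in PP cells and 1 in macrophages. Leaving out Pcdhga10 and Pcdhgb2, a choice made after seeing that they were not lower under FSK in beta cells, could not change the number of lower gamma genes there, and in WT delta cells the number went from 2 to 1.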
